A study of Mus musculus with 24 samples.

Results

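Clec4f, Vsig4, Timd4, Marco, Cd163, Folr2, Clec1b, Vcam1, Cd5l and Fcna encode surface receptors and secreted proteins typical of Kupffer cells, the macrophages residing in liver sinusoids. These 10 genes, of 45792 genes listed in the deposited values, were chosen by symbol with the earlier comparison of dye-positive with dye-negative cells known, so that comparison is described for them without a test. All 10 were among the 14227 genes tested.

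The libraries came from livers of female C57BL/6 mice fed for 2 weeks on a methionine and choline deficient diet, which models steatohepatitis. All mice received liposomes labelled with the membrane dye DiI by vein, and 24 hours later CD11c+ MHC class II+ liver cells, taken as dendritic cells, were sorted into dye-positive (DiI+) and dye-negative (DiI-) cells. The 4 groups of 3 libraries are DiI+ cells after empty liposomes (empty DiI+), DiI+ cells after curcumin liposomes (curcumin DiI+), DiI- cells after empty liposomes (empty DiI-) and DiI- cells after curcumin liposomes (curcumin DiI-). Curcumin is a plant polyphenol, and the diet, the dye and the liposome itself were common to all groups, so no group shows untreated liver. Whether each of the 3 libraries in a group came from its own mouse or from a pool is not in the labels. The p-values therefore reflect library-to-library spread alone, which may be partly technical.

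Kupffer cells line the liver sinusoids and clear particles, microbes, dying cells and worn blood cells from portal blood. Each of the surface proteins studied here binds a class of such cargo or a partner cell: glycans (Clec4f), complement fragments (Vsig4), phosphatidylserine on dying cells (Timd4), polyanionic ligands and bacteria (Marco), haemoglobin bound to haptoglobin (Cd163), folate (Folr2), podoplanin (Clec1b) and alpha-4 integrins (Vcam1). Cd5l and Fcna are secreted, the first travelling in plasma with IgM and the second a ficolin that starts the lectin pathway of complement.

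Promoter sequences were examined because these genes moved together between libraries, as described further on. RefSeq (GRCm38.p6) gave windows of 300 bases, from 250 bases before to 50 after the start, for 9 of the 10 genes, with a pair of windows for Folr2. Vcam1 was not among them. Shown 5′ to 3′ on the strand of the gene are the windows of the gene with the largest difference between gates (Clec4f), of the gene whose libraries differed most within a group (Timd4), of the gene with the highest level per length in most groups (Cd5l) and of the gene whose gates overlapped under each liposome (Cd163). Capitals mark matches, on either strand, to GAGGAA (the core of the motif of PU.1, a macrophage factor encoded by Spi1), to TGCTGA (a half-site of MAF factors) or to TATAAA (the TATA box). TTCCTC and TCAGCA are the first and the second motif read on the other strand.
Clec4f, chr6:83656067-83656366, minus strand: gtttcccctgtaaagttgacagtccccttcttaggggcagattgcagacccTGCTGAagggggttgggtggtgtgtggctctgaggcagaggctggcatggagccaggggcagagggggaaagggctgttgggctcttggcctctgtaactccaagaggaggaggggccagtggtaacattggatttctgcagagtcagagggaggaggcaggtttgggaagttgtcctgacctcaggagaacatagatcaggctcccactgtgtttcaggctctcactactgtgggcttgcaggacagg
Timd4, chr11:46810549-46810848, plus strand: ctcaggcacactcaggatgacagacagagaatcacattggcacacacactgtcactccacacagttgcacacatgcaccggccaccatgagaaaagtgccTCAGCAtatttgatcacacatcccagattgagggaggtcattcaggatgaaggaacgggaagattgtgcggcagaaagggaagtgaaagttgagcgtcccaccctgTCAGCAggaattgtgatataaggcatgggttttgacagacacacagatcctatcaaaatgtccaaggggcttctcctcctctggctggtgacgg
Cd5l, chr3:87357631-87357930, plus strand: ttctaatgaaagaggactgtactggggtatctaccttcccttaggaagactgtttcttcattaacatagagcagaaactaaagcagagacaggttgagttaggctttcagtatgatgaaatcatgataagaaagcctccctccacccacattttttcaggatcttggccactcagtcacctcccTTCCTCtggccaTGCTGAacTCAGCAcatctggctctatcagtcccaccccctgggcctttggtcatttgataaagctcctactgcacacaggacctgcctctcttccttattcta
Cd163, chr6:124304401-124304700, plus strand: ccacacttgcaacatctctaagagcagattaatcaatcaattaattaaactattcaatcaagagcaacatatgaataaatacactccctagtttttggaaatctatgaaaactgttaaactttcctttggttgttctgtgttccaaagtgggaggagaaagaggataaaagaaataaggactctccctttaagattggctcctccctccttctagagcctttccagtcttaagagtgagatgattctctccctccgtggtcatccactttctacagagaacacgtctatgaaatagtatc

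The PU.1 core was found in the windows of 4 of the 9 genes (Vsig4, Cd5l, Marco and Fcna), and in 28.3% of all 32851 windows in the table. The MAF half-site was found in 6 of the 9 genes (Clec4f, Vsig4, Timd4, Cd5l, Fcna and Folr2) or 7 of the 10 windows, and in 19.5% of all windows. The TATA box letters were found in Clec1b alone of the 9 genes, and in 13.6% of all windows. No match to 1 motif overlapped a match to another in the members' windows, and the Cd163 window held none of the 3. Spi1 itself lay between 12.77 and 13.52 in the 12 libraries on the deposited log2 scale and Maf between 8.15 and 9.87. A match describes the letters of a window and not a bound site.

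The cells carried the genes of the sort gate at high levels: Cd74, the class II invariant chain, lay between 18.99 and 19.37 in the 12 libraries, H2-Ab1 between 17.73 and 18.25 and Itgax, which encodes CD11c, between 12.01 and 13.48. Of 9 conventional dendritic cell genes, Cd209a and Clec10a were lower and Ccr7 was higher in DiI+ cells under each liposome (limma, adjusted p under 0.05). Over all genes, 1.62% passed as lower and 1.32% as higher after empty liposomes, and 1.67% and 1.41% after curcumin liposomes. The other 6 dendritic cell genes did not pass. Among these, Zbtb46, a dendritic cell transcription factor, ranged from 7.24 to 10.97 in DiI+ and from 10.47 to 12.09 in DiI- libraries, and Flt3, a dendritic cell growth factor receptor, from 10.34 to 12.22 and from 12.002 to 13.47. The macrophage genes Adgre1 and Csf1r were high in both gates, at 13.69 to 14.81 and 15.64 to 16.16 in DiI+ and at 12.48 to 13.55 and 15.30 to 16.07 in DiI- libraries. The values do not hold the number of reads per library, so precision is given only as the spread between libraries. The values resemble a regularized log, a scale that shrinks differences of low genes, but the transform is not named in the labels. In sorted bulk RNA, fewer cells of a type and less RNA per cell cannot be told apart.

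Of the receptors for glycans, complement and dying cells, Clec4f, a galactose-binding lectin (chromosome 6, 83644542-83656187, minus strand), differed most between gates. Gene positions are on GRCm38. Its deposited log2 values were 11.54, 13.45 and 14.08 in empty DiI+ libraries 1, 2 and 3, and 13.61, 14.18 and 14.61 in curcumin DiI+ libraries. They were 7.97, 8.80 and 8.75 in empty DiI- and 9.24, 9.16 and 10.45 in curcumin DiI- libraries. Every DiI+ library lay above every DiI- library, and empty DiI+ library 1 was the lowest of the DiI+ libraries. The difference between gates was 4.52 after empty and 4.52 after curcumin liposomes, each with a standard error of 0.57. Vsig4, the receptor for complement C3 fragments (chromosome X, 96247203-96293438, minus strand), read 9.52, 11.16 and 11.80 in empty DiI+ and 11.40, 11.84 and 12.36 in curcumin DiI+ libraries. Its DiI- values were 7.05, 8.23 and 8.08 after empty and 8.13, 8.13 and 8.56 after curcumin liposomes. The gates did not overlap, with differences of 3.04 ± 0.50 (SE) and 3.59 ± 0.50.

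Timd4, the phosphatidylserine receptor that marks long-lived Kupffer cells (chromosome 11, 46810800-46844332, plus strand), had the widest spread. It read 5.85, 8.63 and 10.34 in empty DiI+ libraries and 8.91, 9.80 and 10.24 in curcumin DiI+ libraries. In DiI- cells it read 5.61, 5.60 and 5.66 after empty and 5.59, 5.89 and 7.74 after curcumin liposomes. Empty DiI+ library 1 was at the level of the DiI- libraries and below curcumin DiI- libraries 2 and 3, so the order of the 4 groups overlapped between every pair of neighbours. Within each liposome the gates still did not overlap, by 0.20 after empty and 1.17 after curcumin, and the differences of means were 2.65 ± 0.90 and 3.24 ± 0.90.

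Of the scavenger and uptake receptors, Marco, a class A scavenger receptor (chromosome 1, 120474538-120505024, minus strand), read 9.05, 9.60 and 12.38 in empty DiI+ and 10.66, 10.64 and 11.88 in curcumin DiI+ libraries. Its DiI- values were 7.08, 6.04 and 6.35 after empty and 5.98, 6.61 and 7.87 after curcumin liposomes. Empty DiI+ library 3 was the highest of the 12 libraries, and the gates did not overlap, with differences of 3.86 ± 0.76 and 4.24 ± 0.76. Folr2, folate receptor beta (chromosome 7, 101839988-101857194, minus strand), read 7.08, 8.27 and 9.13 in empty DiI+, 8.65, 9.31 and 9.54 in curcumin DiI+, 5.87, 5.98 and 6.85 in empty DiI- and 6.67, 6.11 and 6.29 in curcumin DiI- libraries. All DiI+ libraries were higher, and the differences were 1.93 ± 0.45 and 2.81 ± 0.45.

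Cd163, the haemoglobin scavenger receptor (chromosome 6, 124304656-124330527, plus strand), went apart from the other 9 genes. Its values were 7.01, 9.81 and 9.89 in empty DiI+ and 9.22, 9.76 and 10.03 in curcumin DiI+ libraries, against 9.04, 8.33 and 8.96 in empty DiI- and 9.07, 8.85 and 9.28 in curcumin DiI- libraries. Empty DiI+ library 1 was the lowest of all 12, and the gates overlapped under both liposomes, by 2.03 and 0.06. The differences of means were 0.13 ± 0.60 and 0.61 ± 0.60, and the first became 1.07 without empty DiI+ library 1. Cd163 also changed place among the 10 genes per length with the gate. The other 9, chosen with this contrast known, were lower in DiI- cells by more than Cd163 was. Per kilobase of exon Cd163 was the lowest of the 10 genes in both DiI+ groups, at 6.45 ± 1.6 and 7.22 ± 0.41 (log2 per kb, SD, n = 3). In both DiI- groups it was at rank 6, at 6.33 ± 0.39 and 6.62 ± 0.22. Marco changed place too after empty liposomes, from rank 5 in DiI+ to rank 9 in DiI- cells.

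Of the signalling and adhesion receptors, Clec1b, the podoplanin receptor CLEC-2 (chromosome 6, 129397297-129409335, plus strand), read 9.53, 9.71 and 10.29 in empty DiI+ and 10.10, 10.32 and 10.90 in curcumin DiI+ libraries. Its DiI- values were 8.31, 7.52 and 8.05 after empty and 7.32, 7.71 and 8.14 after curcumin liposomes. It had the narrowest spread of the 10 genes in DiI+ cells, a pooled SD of 0.41, and differences between gates of 1.89 ± 0.29 and 2.72 ± 0.29 without overlap. Clec1b is also a platelet and megakaryocyte gene, and 4 of 10 listed platelet genes could be tested, of which none passed under either liposome (1 and 2 at an unadjusted p under 0.05). Pf4 differed by 0.34 (adjusted p = 0.454, limma) and 0.67 (0.114), Ppbp by 0.06 (0.793) and 0.07 (0.731), Gp1ba by -0.032 (0.956) and 0.40 (0.263) and Itga2b by -1.27 (0.0789) and -0.58 (0.417). Ppbp (4.35 to 4.76) and Gp1ba (4.81 to 5.48) lay close to the mean of 4 needed for testing, so their small differences say little. The platelet genes Gp1bb, Gp5, Gp6, Gp9 and Treml1 fell below the limit for testing, and the summed level of the 4 tested platelet genes ran from 8.30 to 9.07 in DiI+ and from 8.34 to 9.15 in DiI- libraries. The part of platelets in the Clec1b values was not tested.

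Vcam1, an adhesion molecule that binds alpha-4 integrins (chromosome 3, 116109949-116129688, minus strand), read 11.35, 11.96 and 12.29 in empty DiI+ and 11.39, 12.64 and 13.06 in curcumin DiI+ libraries. The DiI- values were 9.86, 10.06 and 10.06 after empty and 9.69, 10.24 and 9.97 after curcumin liposomes. The gates did not overlap, with differences of 1.87 ± 0.36 and 2.399 ± 0.36. Vcam1 is expressed by endothelium too, and the 2 endothelial genes set beside it varied more between libraries than it did. Stab2, a scavenger receptor of sinusoidal endothelium, read 8.17 to 9.90 in empty DiI+ and 6.24, 9.87 and 12.02 in curcumin DiI+ libraries, against 5.48 to 5.87 in empty DiI- and 5.51 to 8.58 in curcumin DiI- libraries. Clec4g, a sinusoidal lectin, read 10.43 in curcumin DiI+ library 3 and 6.00 to 8.02 in the other 11 libraries. In curcumin DiI+ library 3, where Vcam1 was highest, 11 of 11 endothelial genes tested had their highest value of the 12 libraries, and their summed level was 13.59 against 9.51 to 10.72 in the other DiI+ libraries. The summed endothelial level was also higher in every empty DiI+ library, at 9.60 to 10.72, than in the empty DiI- libraries, at 9.18 to 9.38. That sum includes Stab2, which had the largest difference between gates of the list after empty liposomes, 3.33 (limma adjusted p = 0.166). Over the 11 genes the median difference there was 0.16, with 7 of 11 above 0 and none past the threshold. The part of endothelial cells in the Vcam1 values was not tested.

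Of the secreted proteins, Cd5l, a scavenger receptor family protein of plasma (chromosome 3, 87357881-87371073, plus strand), read 12.37, 12.81 and 14.37 in empty DiI+ and 13.25, 13.69 and 14.60 in curcumin DiI+ libraries. In DiI- cells it read 10.40, 9.67 and 10.16 after empty and 9.76, 10.22 and 11.02 after curcumin liposomes. The gates did not overlap, with differences of 3.11 ± 0.50 and 3.51 ± 0.50, and per kilobase of exon Cd5l was the highest of the 10 genes in 3 of the 4 groups, at 12.16 ± 1.1, 9.05 ± 0.37 and 9.31 ± 0.64 in empty DiI+, empty DiI- and curcumin DiI- cells (log2 per kb, SD, n = 3). In curcumin DiI+ cells Clec4f, at 12.83 ± 0.50, and Cd5l, at 12.82 ± 0.69, differed by less than their spread. Fcna, ficolin A (chromosome 2, 25624666-25628030, minus strand), read 8.54, 10.44 and 11.04 in empty DiI+, 10.57, 10.76 and 11.87 in curcumin DiI+, 6.42, 7.29 and 8.43 in empty DiI- and 7.50, 7.83 and 7.96 in curcumin DiI- libraries. The lowest empty DiI+ library was 0.11 above the highest empty DiI- library, and the differences of means were 2.63 ± 0.62 and 3.30 ± 0.62.

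**Figure D1:**
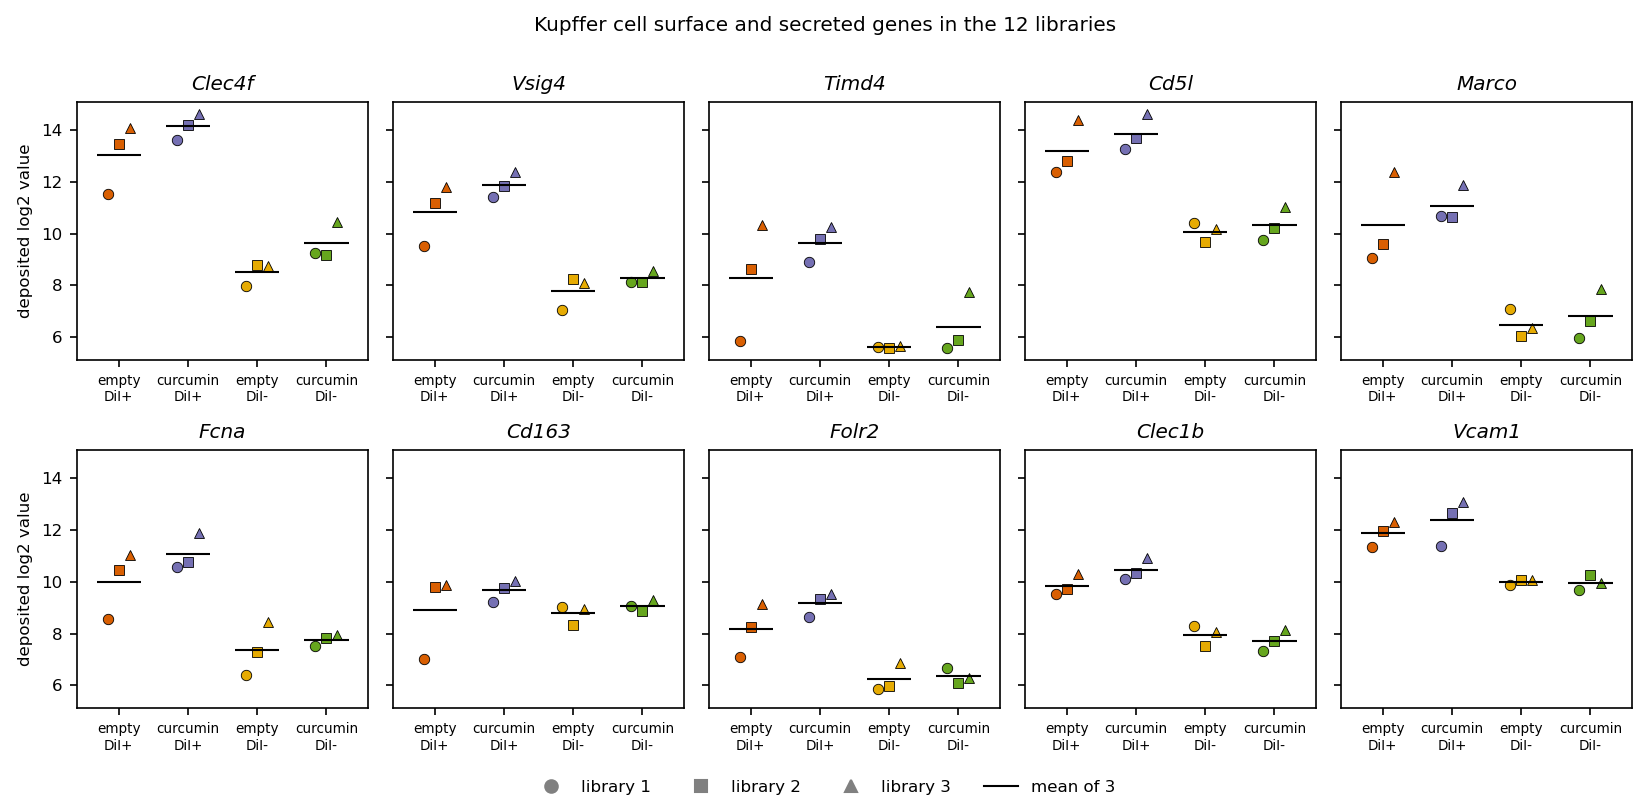
Deposited log2 values of the 10 genes (vertical axis) in the 4 groups, with 1 point per library, shapes for libraries 1 to 3 and a line at the mean of 3. Empty DiI+ library 1 is the lowest point of its group in every panel, and within a liposome the gates overlap for Cd163 alone. For Timd4, empty DiI+ library 1 also lies below 2 of the curcumin DiI- libraries.

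Over the 10 genes, 9 did not overlap between gates under either liposome and were higher in DiI+ cells, where 12.3% of all genes tested did so after empty and 9.88% after curcumin liposomes. These genes were selected on this contrast, so nothing is read from that count. The median difference was 2.64 after empty and 3.27 after curcumin liposomes, against 0.00 over all genes in each. By mean, the order of groups was curcumin DiI+, empty DiI+ and then the DiI- groups for 9 genes, and curcumin DiI+, curcumin DiI-, empty DiI+ and empty DiI- for Cd163. The DiI+ groups overlapped each other for all 10 genes. The DiI- groups overlapped each other for 9 of the 10 and were apart for Clec4f, with curcumin DiI- higher.

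**Figure D2:**
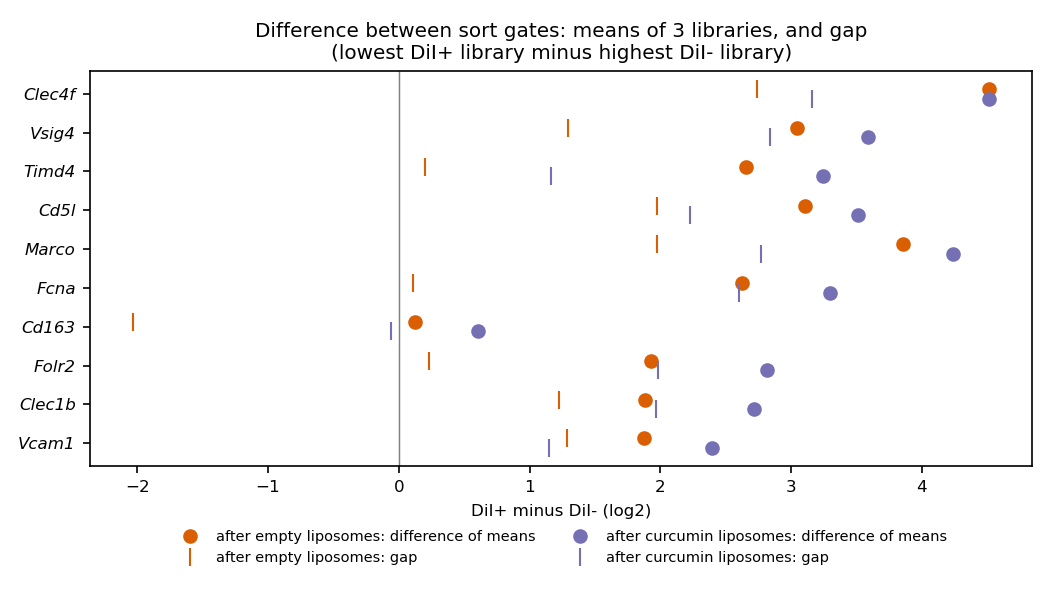
DiI+ minus DiI- on the log2 scale (horizontal axis) for each gene after empty (orange) and curcumin (violet) liposomes, as the difference of means of 3 libraries (circles) and as the gap between the lowest DiI+ and the highest DiI- library (ticks). Clec4f has the largest difference, 4.52 under both liposomes, and Cd163 has the 2 gaps below 0.

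The comparison of curcumin with empty liposomes, which played no part in the choice of the genes, was tested in each gate. In DiI+ cells all 10 genes had a higher mean after curcumin, by 0.50 (Vcam1) to 1.37 (Timd4) and a median of 0.89 against 0.00 over all genes. None passed the threshold in limma (adjusted p from 0.595 to 0.833), as 0% of all genes did, with 1165 of 14227 genes at an unadjusted p under 0.05. Folr2 was the only one of the 10 at an unadjusted p under 0.05 (0.0448), with a difference of 1.01 ± 0.45 (SE, 95% interval 0.03 to 1.99), where 3.86% of all genes were higher at that level. Clec4f differed by 1.11 (interval -0.13 to 2.36), Timd4 by 1.37 (-0.60 to 3.35) and Cd163 by 0.77 (-0.55 to 2.09). No gene of the 10 was free of overlap between the groups, where 4.93% of all genes were higher without overlap.

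These differences rested largely on empty DiI+ library 1. Without it, 9 of 10 genes were still higher after curcumin, but the median fell from 0.89 to 0.29, with a range from -0.18 (Cd163) to 0.47 (Folr2). Timd4 went from 1.37 to 0.16 and Marco from 0.71 to 0.07. Without empty DiI+ library 3, the highest of that group, the median was 1.51, and without curcumin DiI+ library 3, the one with high endothelial genes, it was 0.62.

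In DiI- cells the differences were smaller for 9 of the 10 genes, and 8 of 10 were higher after curcumin, from -0.24 (Clec1b) to 1.11 (Clec4f), with a median of 0.31. That median was 0.087 without empty DiI- library 2, 0.13 without curcumin DiI- library 3 and 0.53 without curcumin DiI- library 1. All adjusted p-values were 1 (limma), and 0% of all genes passed, with 469 genes at an unadjusted p under 0.05. Clec4f (1.11 ± 0.57, SE, interval -0.13 to 2.36) was the only gene of the 10 whose groups did not overlap, where 5.73% of all genes were higher without overlap, and the gap between its groups was 0.37. Without curcumin DiI- library 3 its difference was 0.69. Averaged over both gates, all 10 genes were higher, by a median of 0.55, which was 0.28 without empty DiI+ library 1 and 0.89 without empty DiI+ library 3. Clec4f was the only one at an unadjusted p under 0.05 (1.11 ± 0.40, interval 0.23 to 1.99, limma adjusted p = 0.595), where 3.82% of all genes were higher at that level, and 0% of all genes passed after adjustment.

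Whether the curcumin difference itself depended on the gate was tested as the difference between both gates' effects. It was above 0 for 9 of the 10 genes, from 0.00 (Clec4f) to 0.89 (Folr2), with limma adjusted p from 0.999 to 1, and 0% of all genes passed. The smallest unadjusted p was that of Clec1b (0.83 ± 0.41, interval -0.07 to 1.74, limma adjusted p = 0.999), so none of the 10 was under 0.05, where 1.67% of all genes had a larger gate difference after curcumin at that level. Without empty DiI+ library 1 the difference was above 0 for 3 of the 10 genes. The intervals, the widest being that of Timd4 (-2.21 to 3.39), do not show that the liposomes acted alike.

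**Figure D3:**
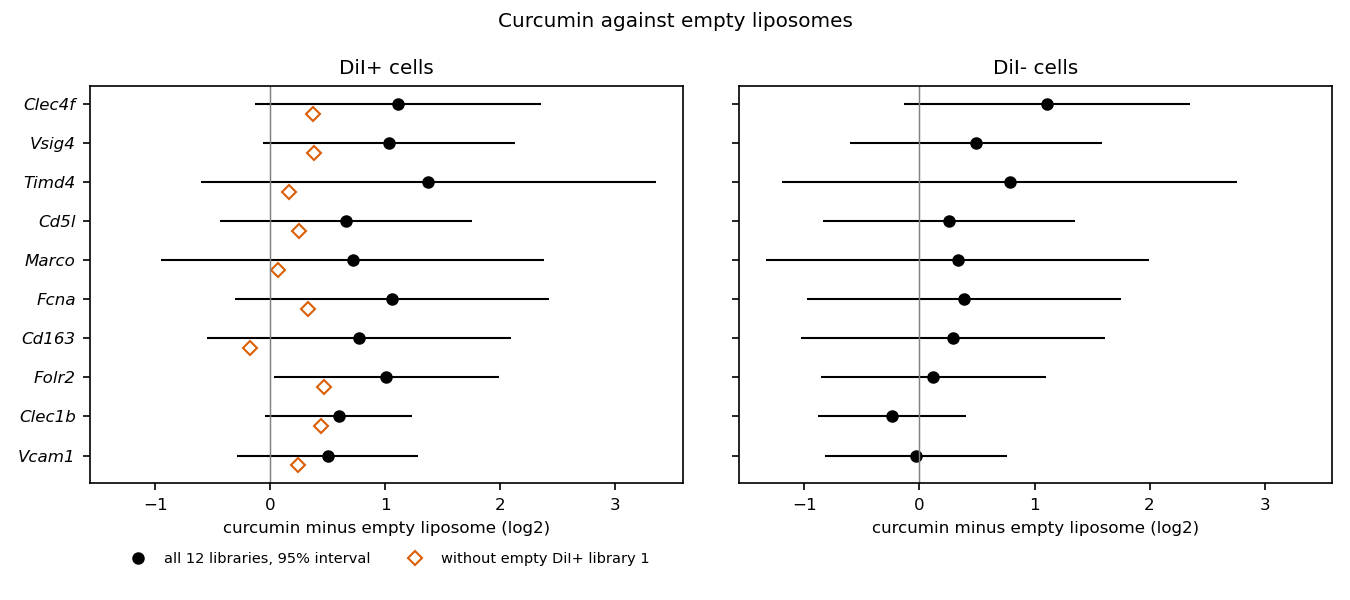
Curcumin minus empty liposomes on the log2 scale (horizontal axis) for each gene in DiI+ cells (left) and DiI- cells (right), with 95% intervals from the limma fit of all 12 libraries, and diamonds for the value without empty DiI+ library 1. The interval of Folr2 in DiI+ cells is the only one that excludes 0, before adjustment, and the diamonds lie closer to 0 than the circles for all 10 genes.

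The 10 genes varied between libraries of 1 group more than most genes, though not all of them by far. In DiI+ cells their pooled SD ran from 0.41 (Clec1b) to 1.67 (Timd4), against a median of 0.22 over all genes. There 0.06% of all genes had a larger SD than Timd4 and 13.4% a larger SD than Clec1b. In DiI- cells the pooled SD ran from 0.21 (Vcam1) to 0.83 (Timd4), against a median of 0.16. Of all genes, 31% had a larger SD than Vcam1 in DiI- cells and 11.4% a larger SD than Cd163.

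The genes also departed together. Empty DiI+ library 1 was the lowest of its group for 10 of 10 genes, at a median of -1.30 from the group mean, where 33.8% of all genes had their lowest value in it. Empty DiI+ library 3 was the highest for 10 of 10, at 1.01, where 31.9% of all genes had their highest. In curcumin DiI+ cells, library 1 was the lowest for 9 of 10 and library 3 the highest for 10 of 10, where 40.1% and 35.8% of all genes were so. Curcumin DiI- library 3 was the highest of its group for 8 of 10, where 35.3% of all genes were. Over the 45 pairs of the 10 genes, the departures correlated with a median Pearson r of 0.70 (0.40 to 0.97) and a median Spearman rho of 0.66 over the 12 libraries. Without the 2 libraries with the largest departures, empty DiI+ 1 and 3, the median r was 0.49. In the 6 DiI+ libraries it was 0.86 and in the 6 DiI- libraries 0.22, with 33 of 45 pairs above 0. These points share libraries and their depth, and the values are a description.

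**Figure D4:**
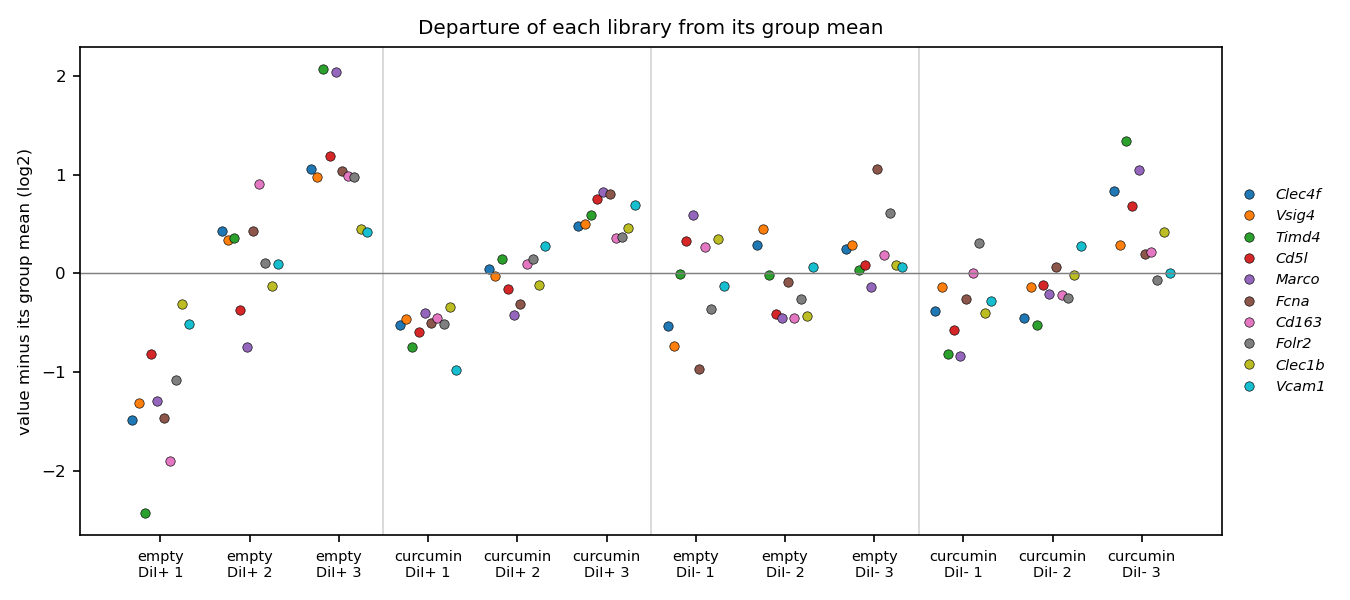
Value minus the mean of its group on the log2 scale (vertical axis) for the 10 genes in each of the 12 libraries, with 1 coloured point per gene. All 10 points lie below 0 in empty DiI+ library 1 and above 0 in empty DiI+ library 3 and curcumin DiI+ library 3. On average the points lie furthest from 0 in empty DiI+ libraries 1 and 3, with mean absolute departures of 1.26 and 1.12.

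Other Kupffer cell genes followed these departures in part. Of 22 others tested, 14 were lowest in empty DiI+ library 1 and 21 highest in empty DiI+ library 3. In that first library C6, the complement component, read 5.65 against 8.42 and 9.52 in the other empty DiI+ libraries, close to its DiI- values of 5.398 to 6.39, as Timd4 did. In curcumin DiI- library 3 they parted: 8 of the 10 surface and secreted genes had their highest value of that group there, whereas 12 of the 22 others had their lowest, among them C1qb (12.48 against 13.36 and 14.05) and Adgre1 (12.48 against 13.24 and 13.43). All 11 endothelial genes were highest of that group in the same library and all 7 B cell genes lowest. The part of cell mixture in these departures was not tested.

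By the correlation of departures over the 12 libraries, the protein-coding gene outside the 10 most like each of them was taken from 11810 compared. The 10 themselves were left out, and Cd5l and Marco were more like each other (r = 0.97) than like the genes named here. These were Trp53i13 for both Clec4f (r = 0.96) and Vsig4 (0.97), Ldah for Timd4 (0.96), Slc29a1 for Marco (0.96), Cnksr3 for Cd163 (0.96), Cnih1 for Folr2 (0.95), Hspa13 for Clec1b (0.94), Slc25a45 for Vcam1 (0.98), Colec12 for Cd5l (0.96) and Tmem106c for Fcna (0.95). Vcam1 was the gene whose departures were least like those of the other 9 in DiI+ cells, with a median r of 0.75. Without empty DiI+ libraries 1 and 3 these correlations lay between 0.87 (Cnksr3) and 0.97 (Slc25a45). The highest of so many correlations is high in any data, and they are a description.

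Genes that accompany the 10 in Kupffer cells were tested between gates from lists. These lists too were chosen with earlier results of these data known, so their calls and counts are a description and not independent support. Of 22 other Kupffer cell genes, all 22 were higher in DiI+ cells under both liposomes, and 3 passed the threshold after empty and 8 after curcumin liposomes (limma, adjusted p under 0.05), where 1.32% and 1.41% of all genes passed in that direction. Their median difference was 0.80 and 1.03, against 0.00 over all genes in each. Il18bp, the interleukin-18 antagonist, rose by 2.53 ± 0.26 (SE) and 2.68 ± 0.26 (adjusted p = 0.00154 and 0.00213). Slc40a1, the iron exporter ferroportin, rose by 2.19 ± 0.35 and 2.78 ± 0.35 (0.0102 and 0.00439), and Mertk, a receptor for dying cells, by 1.43 ± 0.32 and 1.64 ± 0.32 (0.0397 and 0.023). The calls of Il18bp held under all 22 alternatives in each comparison, and those of Mertk were lost under 7 and 4 of them. C6 differed by 2.41 ± 0.71 after empty (adjusted p = 0.0985) and rose by 3.92 ± 0.71 after curcumin liposomes (0.0167). The count after empty liposomes was 6 without empty DiI+ library 1 and 1 without empty DiI- library 1. After curcumin liposomes it was 2, 4 and 3 without curcumin DiI- library 1, curcumin DiI- library 3 and curcumin DiI+ library 2, and 12 without empty DiI+ library 3 or curcumin DiI- library 2. With only the libraries compared in the fit it was 3 and with quantile normalization 12.

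Of 10 transcription factors of Kupffer cells, none passed after empty liposomes (limma; 5 at an unadjusted p under 0.05), and Spic, a factor of iron-recycling macrophages, was the 1 that rose after curcumin liposomes (1.04 ± 0.21, adjusted p = 0.0244, against 0.85 ± 0.21 and 0.0547 after empty). Over all genes, 2540 of 14227 were at an unadjusted p under 0.05 after empty liposomes (limma). After curcumin liposomes 1.41% of all genes passed the adjusted threshold as higher in DiI+ cells. Of the 10 factors, 5 had positive differences after empty and 6 after curcumin liposomes, with medians of 0.04 and 0.13. Nr1h3 (LXR alpha) was higher by 0.94 and 0.98 (limma adjusted p = 0.163 and 0.141). Spi1 differed by -0.43 and -0.36 (0.0632 and 0.101) and Rbpj by -0.56 and -0.54 (0.107 and 0.114). The call of Spic was lost without curcumin DiI- library 1 or 3, with the replicate block within each liposome and with only the libraries compared. The count after curcumin liposomes was 2 without curcumin DiI- library 2, and that after empty liposomes was 1 without curcumin DiI- library 2 and 2 without curcumin DiI+ library 3. With library weights it was 3.

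Of 11 tested binding partners of these proteins, Ighm and Jchain, the IgM heavy chain and joining chain that carry Cd5l in plasma, were higher in DiI+ cells. Ighm rose by 1.30 ± 0.20 after empty and 1.04 ± 0.20 after curcumin liposomes (limma adjusted p = 0.00854 and 0.0204), and Jchain by 2.47 ± 0.49 after empty (0.0257), with 1.71 ± 0.49 after curcumin liposomes (0.0874). Itgb7, a partner of alpha-4 integrin, fell, with differences of -0.79 and -0.74 (0.00468 and 0.00605), where 1.62% and 1.67% of all genes passed in that direction. Podoplanin, the ligand of Clec1b, is listed at 0 in all 12 libraries. Ighm and Jchain are B lineage genes, and B cell genes were higher in the same cells. All 7 had positive differences, with medians of 1.24 and 1.11. Under each liposome 3 of 7 passed, where 1.32% and 1.41% of all genes passed as higher in DiI+ cells. The summed B cell level was 16.36 to 16.71 in empty DiI+ and 15.11 to 15.43 in empty DiI- libraries, and the part of these cells in the Ighm and Jchain values was not tested. The call of Jchain after empty liposomes was lost without any 1 of the 6 libraries compared, and that of Ighm after curcumin liposomes without any 1 of them but curcumin DiI+ library 3. After curcumin liposomes the count of partners was 0 with only the libraries compared, 1 without curcumin DiI+ library 1 or 2 or curcumin DiI- library 1, and 4 without curcumin DiI+ library 3. The B cell counts ran from 1 (without any 1 of the 6 libraries compared) to 7 (without curcumin DiI+ library 3) after empty liposomes. After curcumin liposomes they were 0 with only the libraries compared and ran from 0 (without curcumin DiI+ library 1 or 2 or curcumin DiI- library 3) to 7 (without curcumin DiI+ library 3).

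Of 16 family relatives of the 10 genes 12 were tested, with median differences between gates of -0.10 and -0.10. The 1 that passed was Clec10a, a lectin of dendritic cells and macrophages, which fell, with differences of -1.34 and -1.29 (limma adjusted p = 0.0153 and 0.0192). Over all genes, 1.62% and 1.67% passed in that direction. Msr1, the class A scavenger receptor related to Marco, was higher by 0.48 (adjusted p = 0.416) and 0.63 (0.269). Of the relatives of Timd4, Havcr2 differed by -0.404 and -0.405 (0.172 and 0.165). The call of Clec10a after empty liposomes was lost without empty DiI+ library 1 or empty DiI- library 1 or 2. After curcumin liposomes the count was 0 without curcumin DiI+ library 2 or curcumin DiI- library 2 or 3 or with only the libraries compared, and 3 without curcumin DiI+ library 3.

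**Figure D5:**
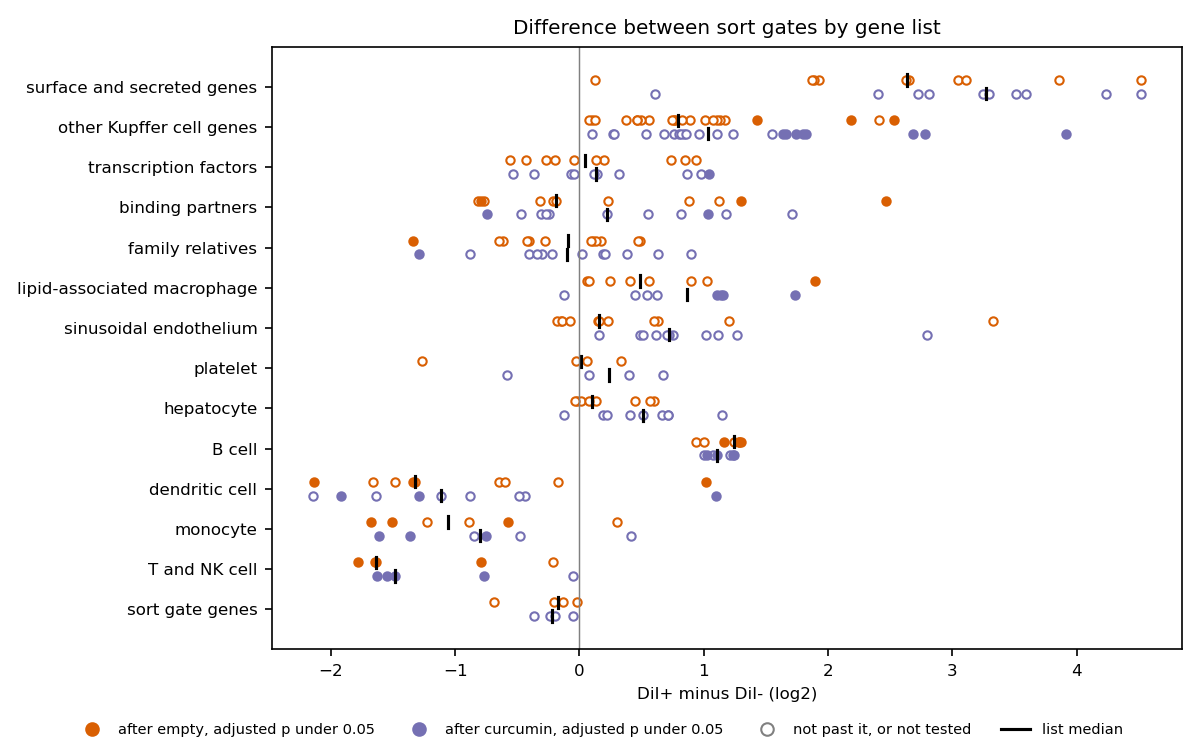
DiI+ minus DiI- on the log2 scale (horizontal axis) for the 10 genes and for the tested genes of 13 other lists, after empty (orange) and curcumin (violet) liposomes, with 1 point per gene, filled where the limma adjusted p was under 0.05 and open where it was not or, for the 10 genes, where no test was made. All 22 other Kupffer cell genes lie above 0 and all 5 T and NK cell genes below 0 under both liposomes, and the 10 genes, chosen on this contrast, are shown for reference.

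In the curcumin comparisons none of the genes of these lists passed the threshold in limma. Of the other Kupffer cell genes in DiI+ cells, 21 of 22 were higher after curcumin, by a median of 0.24, where 50.1% of all genes were higher. For 14 of the 22, empty DiI+ library 1 was the lowest of its group. In DiI- cells 8 of the 22 were higher after curcumin, with a median of -0.07. In DiI+ cells 2 of 22 were higher at an unadjusted p under 0.05, where 3.86% of all genes were. These were C6 (1.93 ± 0.71, SE, adjusted p = 0.538), whose difference was 0.82 without empty DiI+ library 1, and Hmox1, haem oxygenase (0.70 ± 0.29, 0.576), whose difference was 0.39 without curcumin DiI+ library 3. Of the family relatives, Havcr2 was higher after curcumin by 0.48 ± 0.15 in DiI+ cells (adjusted p = 0.464) and by 0.48 ± 0.15 in DiI- cells (adjusted p = 1).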

How the data were processed

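Low-input RNA sequencing (SMARTer cDNA, Nextera XT libraries) was done on sorted cells, per the labels' protocols. The deposited values are log2 values per gene, computed by the authors before deposit. GRCm38, DESeq2 1.8.1 and STAR 2.4.0d are named in the submitters' processing notes. No label or header names the read counter, the annotation or the transform. In form the values resemble a regularized log, which compresses low values, and 20918 of 45792 genes are at 0 in all libraries. The labels hold 24 records for 12 library codes, and each code was counted as 1 library. EL and CL in the codes were read as empty and curcumin liposome, and P and N as DiI+ and DiI-, from the series' design text.

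Genes whose mean log2 value reached 4 were tested with limma 3.58.1 (R 4.3.3), with 1 mean per group, trended eBayes (8 residual and 3.51 prior degrees of freedom) and Benjamini-Hochberg adjustment over 14227 genes at 0.05. The fit was tested on simulated data. The 10 genes and all lists were chosen with earlier results of these data known. Other genes were named by a rule: up to 4 of each list with the smallest unadjusted p, the genes most like each of the 10, and set genes of the gate, macrophages, platelets and endothelium. List levels are log2 of the summed linear values. Symbols, positions and exon lengths came from GENCODE M21, and gates were compared under each liposome. Alternatives covered filters, scaling, prior variance, libraries in the fit, library weights, a log offset of 32, a replicate block and leaving out each library. No 2 libraries held identical values (r from 0.974 to 0.994).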

Additional observations from a re-analysis of the deposited data

How the results depend on the processing

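No gene of the 10 passed the adjusted threshold in a curcumin comparison under any alternative. Outside leaving out libraries, none of the 10 changed direction in the curcumin comparisons within a gate or in the average. The counts of genes that differed between gates, 419 after empty and 437 after curcumin liposomes, became 263 and 248 with no filter on low values. With library weights the first was 789. With only the libraries compared the second was 40 (31 higher, 9 lower). Leaving out each library in turn gave 85 to 659 after empty and 114 to 1088 after curcumin liposomes. For curcumin against empty liposomes it gave 0 to 4 in DiI+ cells, 0 to 0 in DiI- cells and 0 to 2 for the average. For the difference between both gates' curcumin effects it gave 0 to 2. The cause was not tested. Directions reversed only on leaving out libraries, apart from the difference between both gates' curcumin effects for Clec4f. That difference was 0.00 and became -0.053 with quantile normalization, 0.18 with library weights and -0.74 to 0.53 without single libraries. Cd163 in DiI+ cells ran from -0.18 to 1.27. In DiI- cells Cd5l ran from -0.085 to 0.54, Marco from -0.19 to 0.75, Fcna from -0.10 to 0.91, Folr2 from -0.059 to 0.43 and Vcam1 from -0.17 to 0.11. The difference between both gates' curcumin effects ran from -0.11 to 1.03 for Vsig4, -0.62 to 1.62 for Timd4 and -0.006 to 0.99 for Cd5l. It ran from -0.27 to 1.40 for Marco, -0.059 to 1.19 for Fcna and -0.47 to 0.97 for Cd163. The labels do not say what same-numbered libraries share beyond the number. Their departures correlated from -0.11 to 0.33 over 18 pairs, 2 of them over 0.1. Between the gates of the same liposome they correlated from 0.004 to 0.33. There 9 of 12 libraries correlated best with their own number in the other gate. With the number as a replicate block 405 and 407 genes differed between gates, and with the block within each liposome 390 and 448. Read depth is not in the values, so what it limits cannot be given.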

Other observations

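Other cell types of the sort differed between gates as follows, by lists that were also chosen with earlier results of these data known. NK and T cell genes were lower in DiI+ cells: 4 of 5 passed under each liposome, where 1.62% and 1.67% of all genes passed in that direction. Nkg7, a granule protein, fell, with differences of -1.635 after empty and -1.48 after curcumin liposomes (limma adjusted p = 0.00466 and 0.00567). The count was 2 without any 1 of the 3 empty DiI- libraries. After curcumin liposomes it was 2 without curcumin DiI+ library 2 or curcumin DiI- library 1, and 1 with only the libraries compared.

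Of 6 monocyte genes, Ly6c2, Ccr2, the receptor for the chemokine CCL2, and F13a1 were lower in DiI+ cells under each liposome (limma adjusted p from 0.00766 to 0.0264). Over all genes, 1.62% after empty and 1.67% after curcumin liposomes passed in that direction. Ly6c2, a marker of inflammatory monocytes, differed by -1.51 and -1.36. The count after empty liposomes was 0 without empty DiI+ library 2 or empty DiI- library 2, and 5 without curcumin DiI- library 3 or with only the libraries compared. After curcumin liposomes it was 1 without curcumin DiI+ library 1 or 2 or curcumin DiI- library 1 or 2, 5 without curcumin DiI- library 3 and 0 with only the libraries compared. Of the dendritic cell genes, Cd209a had the smallest unadjusted p under each liposome (limma). It fell, with differences of -2.14 and -1.92 (limma adjusted p = 0.00468 and 0.00766). The second call was lost with only the libraries compared. Zbtb46, which did not pass, had the larger difference after curcumin liposomes, at -2.14 (limma adjusted p = 0.134). Ccr7, a receptor for migration to lymph nodes, rose by 1.02 and 1.10 (limma adjusted p = 0.0251 and 0.0181). These calls were lost under 4 and 5 of 22 alternatives. In curcumin DiI+ library 3 Ccr7 was the lowest of its group, at 11.81 against 12.44 and 12.57, as all 7 B cell genes were. There 8 of the 9 dendritic cell genes were the highest of that group. The part of B cells in the Ccr7 values was not tested.

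Of 8 lipid-associated macrophage genes, 1 passed after empty and 3 after curcumin liposomes, all higher, where 1.32% and 1.41% of all genes passed in that direction. Mmp12, a macrophage elastase, rose by 1.90 and 1.74 (limma adjusted p = 0.00722 and 0.0103), and the second call was lost with only the libraries compared, where the count was 0. The count after curcumin liposomes was 1 without curcumin DiI+ library 1 or 2 or curcumin DiI- library 1 or 3. That after empty liposomes was 2 without curcumin DiI- library 2 or 3, and 3 with library weights.

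Hepatocyte genes did not pass in either gate comparison. All 9 were higher after curcumin in DiI+ cells, by a median of 0.49, none past the adjusted threshold and 6 at an unadjusted p under 0.05, where 3.86% of all genes were higher at that level.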
